A study of Mus musculus with 10 samples.

Results

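The cytosolic ribosomal protein genes encode the protein subunits of the ribosome that translates nuclear messenger RNA, and their transcripts were followed in mouse microglia, the resident macrophages of the brain. Members were the entries of the deposited TPM table whose symbol is Rpl or Rps with a number and at most 1 further letter, or Rplp0, Rplp1, Rplp2 or Rpsa; symbols that carry the pseudogene suffix -ps were left out. This gave 82 of the 32074 entries, of which 80 had a mean of at least 1 TPM and entered the tests. TPM is the abundance of a transcript corrected for its length and scaled so that each library sums to 1000000. Rpl28 and Rpl3l lay under 1 TPM in each of the 10 libraries and were not tested. RefSeq lists Rpl6l and Rps4l as pseudogenes. GENCODE lists both of them and also Rpl32l as pseudogenes, whereas RefSeq lists Rpl32l as protein-coding.

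All groups were primary microglia from the cortex of newborn CD-1 mice, taken at postnatal days 2 to 4 and cultured in DMEM with fetal bovine serum. In medium with exosome-depleted serum they received, for 24 h, phosphate-buffered saline (PBS, 4 libraries), 1 µg of serum vesicles from sham-operated mice (3 libraries), or 1 µg of serum vesicles from mice after spared nerve injury (SNI, 3 libraries). The vesicles are small extracellular ones (sEVs), lipid-bounded bodies shed by cells into body fluids. SNI is a surgical model of neuropathic pain in which some branches of the sciatic nerve are cut. Per the labels the libraries were biological replicates, made from poly(A) RNA with a stranded kit, and the study asked how vesicles of the injured and the sham-operated animals differ in their effect on microglial transcripts; the labels do not say how many animals gave serum.

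As background, each ribosome holds a single copy of most of these proteins, and their genes are among the most highly transcribed in a growing cell. Their messenger RNAs carry a run of pyrimidines at the very 5′ end, the TOP motif, through which the kinase complex mTORC1 controls their translation together; TOP control acts mainly on translation, while the level of the messenger also depends on transcription and decay. Mammalian genomes hold many processed pseudogenes of this family, copies without introns that can be almost identical to the parent, so short reads may not tell them apart. In macrophages, as in other cells, mTORC1 couples the making of ribosomes to nutrients and growth signals.

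Because TPM has a fixed total, the share of one gene group depends on what the others take. The 20 highest genes outside the family took 20.6% ± 0.510 of the total in PBS (mean ± SD, n = 4), 24.3% ± 0.307 with sham sEV (n = 3) and 21.5% ± 0.286 with SNI sEV (n = 3). Saa3, an acute-phase protein gene, went from 0.0612% ± 0.0115 in PBS to 6.10% ± 0.238 with sham sEV, and Spp1 (osteopontin) from 3.93% ± 0.582 to 0.420% ± 0.0292. PBS replicate 1 stood apart from the other PBS libraries in the family: it was the highest of the 4 in 71 of the 80 tested members. How often it was highest over all genes is not given here, so this is not shown to be particular to the family. Values that rest on PBS are given with and without it where it matters. Summed TPM of 12 microglial markers was 7993 to 8649 in PBS, 9147 to 9478 with sham sEV and 9366 to 10040.0 with SNI sEV. All 12 had a mean of at least 1 TPM. The sums hide a split: by limma at an adjusted p under 0.05, 6 of the 12 were higher and 5 lower with sham sEV than with PBS. Over all genes tested these shares were 16.5% and 52.5%. The log2 fold changes of the 12 ran from -4.41 to 3.75. The 8 astrocyte markers summed to 145 to 166, 89.7 to 102 and 163 to 169.9 TPM, and the 10 markers of the oligodendrocyte lineage to 595 to 682, 426 to 474 and 652 to 725 TPM, so both lists were lower with sham sEV. Of the 8 neuronal markers, which summed to 12.5 to 20.002, 13.6 to 16.2 and 14.4 to 15.2 TPM, 5 had a mean under 1 TPM, as did all 7 fibroblast and endothelial markers in the table (sums of 1.18 to 1.76, 3.44 to 3.94 and 1.45 to 2.36 TPM). No marker was at 0 in all libraries. The part of these other cell types in the ribosomal values was not tested, and in bulk RNA fewer cells of a type cannot be told apart from less RNA per cell.

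Together the 82 ribosomal protein genes took less of the library after sham sEV than after PBS, and SNI sEV lay between. Their TPM summed to 30707, 25288, 25916 and 26189 in the 4 PBS libraries, to 19541, 18959 and 20096 with sham sEV and to 25974, 24351 and 24199 with SNI sEV. The sham-sEV libraries lay below all others with no overlap, whereas the highest SNI-sEV library lay inside the PBS range. As a share of the library this was 2.70% ± 0.248 in PBS, 1.95% ± 0.0568 with sham sEV and 2.48% ± 0.0984 with SNI sEV. The sham-sEV mean was 72.3% of the PBS mean, or 75.7% without PBS replicate 1, and the SNI-sEV mean was 91.9%, or 96.3% without it.

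By subunit, the small-subunit genes summed to 10669.9 ± 967 TPM in PBS and 7508 ± 233 with sham sEV, which is 70.4% of PBS, and the large-subunit genes to 16355 ± 1521 and 12024 ± 337, which is 73.5%. The 78 genes of the mitochondrial ribosome, a separate set of proteins that translates the messengers of the mitochondrial genome, summed to 3214 ± 216 TPM in PBS, 3021 ± 39.996 with sham sEV and 2995 ± 57.2 with SNI sEV, and the sham-sEV mean was 94.0% of PBS. Without PBS replicate 1 these 3 shares were 73.7%, 77.0% and 97.2%.

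**Figure D1:**
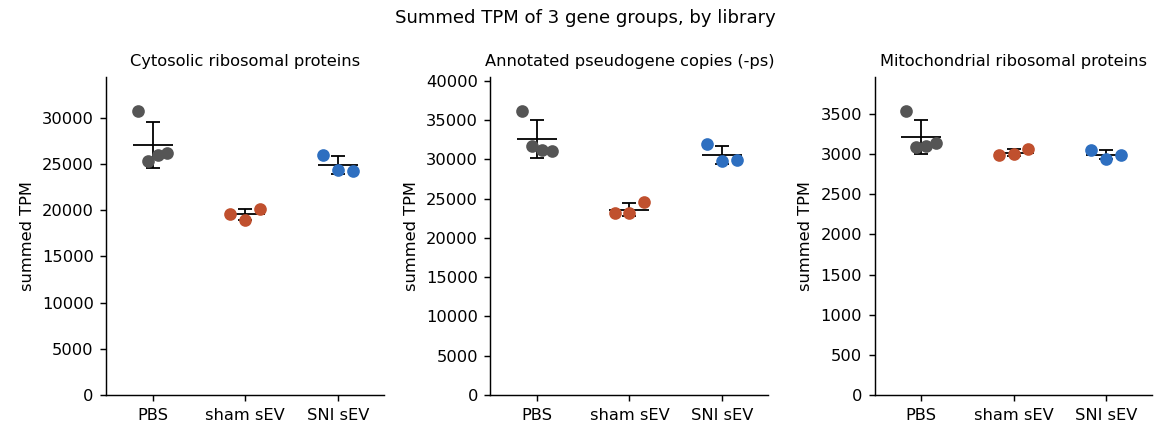
Summed TPM (vertical axes, from 0) of the 82 cytosolic ribosomal protein genes, of their annotated pseudogene copies and of 78 mitochondrial ribosomal protein genes; points are libraries, the bar is the group mean and the whisker the SD. The sham-sEV libraries lie lowest in the first 2 panels (18959 to 20096 TPM in the first), PBS replicate 1 is highest in all 3, and the groups lie close together in the third.

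The first comparison, sham sEV against PBS, asks what vesicles of sham-operated animals did. Of the 80 tested members 76 were lower and 1, Rpl39l, was higher by limma at an adjusted p under 0.05. Over all 14806 genes tested, 52.5% were lower and 16.5% higher. Without PBS replicate 1 the members gave 75 lower and 2 higher, against 58.4% and 16.9% of all genes. The median log2 fold change of the members was -0.44, with a range of -0.82 to 0.89, beside -0.25 over all genes. Values of the groups did not overlap for 76 members, against 66.5% of all genes.

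Among the small-subunit genes 31 of 32 were lower, with a median of -0.44. Rps16, a component of the 40S head, was at 368, 278, 292 and 267 TPM in PBS, 165, 167 and 175 with sham sEV and 267, 257 and 267 with SNI sEV. The sham-sEV libraries lay far below both other groups, and on deposited TPM its fall was the largest of the family, at a log2 fold change of -0.82 ± 0.09 (SE, adjusted p = 9e-06, 1.77-fold). Rps15, which contacts transfer RNA in the ribosome and is needed for export of the small subunit from the nucleus, stood at 1104, 841, 923 and 957 TPM in PBS, 572, 509.7 and 578 with sham sEV and 889.8, 809 and 781 with SNI sEV. The sham-sEV values were again all below the PBS values (-0.78 ± 0.09, adjusted p = 9e-06).

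Rps21, a small protein on the solvent side of the 40S subunit, gave 243, 208, 209.8 and 203 TPM in PBS, 131, 115 and 143 with sham sEV and 228, 195 and 214 with SNI sEV, so the SNI-sEV values mixed with PBS and the sham-sEV values did not (-0.73 ± 0.09, adjusted p = 1.5e-05). On the log2 scale Rps27, a zinc-finger protein of the small subunit, fell by 0.68 ± 0.13 (adjusted p = 0.00074) from 156, 107, 102 and 105 TPM to 70.4, 70.9 and 75.1. PBS replicate 1 was far above the other PBS libraries in that gene, yet the lowest PBS library was still above the highest sham-sEV library. Rps12 (-0.65 ± 0.09), Rps28 (-0.65 ± 0.11) and Rpsa, which is also known as the laminin receptor (-0.65 ± 0.06), were lower to a similar extent. Rps6, the substrate of S6 kinase downstream of mTORC1, was lower by less (-0.30 ± 0.06, adjusted p = 0.001), and under a scaling that sets the typical gene equal between libraries (median-of-ratios) it was at -0.02 (adjusted p = 0.86).

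Of the 48 large-subunit genes 45 were lower and 1 higher, with a median of -0.43. Rpl37a, a zinc-finger protein of the 60S subunit, was at 445, 327, 339.9 and 346 TPM in PBS, 225, 205 and 213 with sham sEV and 340.3, 305 and 296 with SNI sEV. The sham-sEV group was apart from both others (-0.75 ± 0.10, adjusted p = 3.2e-05). Rpl31, which sits at the rim of the exit tunnel of the nascent chain, fell by 0.72 ± 0.08, from 67.2 ± 7.73 to 40.4 ± 2.17 TPM. Rpl10a, the protein of the L1 stalk through which used transfer RNA leaves, was at 253, 225, 235 and 229 TPM in PBS and at 149, 146 and 150.0 with sham sEV, a fall of 0.66 ± 0.05 (adjusted p = 1.9e-07) with no overlap.

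Rplp1, Rpl8, Rpl41 and Rpl32, which are among the members with the highest mean levels, were all lower. Rplp1, one of the acidic proteins of the stalk that recruits elongation factors, was highest, at 2758, 1905, 2019 and 2196 TPM in PBS and 1559, 1425 and 1511 with sham sEV (-0.55 ± 0.11, adjusted p = 0.00067). All 3 sham-sEV values were under the lowest PBS value. Rplp0, which anchors that stalk, was lower by only 0.19 ± 0.05 on the log2 scale (adjusted p = 0.0093), from 960.4 ± 61.4 to 841 ± 25.2 TPM, and under median-of-ratios scaling its sign turned (0.10, adjusted p = 0.28). Rplp0 and, above, Rpsa and Rps6 were named after their values were seen.

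The members that did not pass were Rpl38, Rpl27 and Rps4l. Rpl38, known in mouse embryos for its part in the translation of Hox messengers, was at 66.9, 56.0, 54.1 and 58.2 TPM in PBS and 51.7, 53.6 and 54.9 with sham sEV, and these ranges overlapped (-0.13 ± 0.07, adjusted p = 0.11). Rpl27 gave 117, 107, 103 and 96.8 against 91.4, 96.9 and 107 TPM, also overlapping (-0.10 ± 0.08, adjusted p = 0.26). Both signs turned under median-of-ratios scaling, to 0.15 (adjusted p = 0.17) and 0.18 (adjusted p = 0.14). Rpl24, which forms a bridge between the subunits, was lower by 0.16 ± 0.06 (adjusted p = 0.037). Of 21 alternative settings this call passed in 9 and not in 12. It did not pass without PBS replicate 1 (-0.11, adjusted p = 0.054), and the sign of Rpl24 turned under median-of-ratios scaling (0.12, adjusted p = 0.21).

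**Figure D2:**
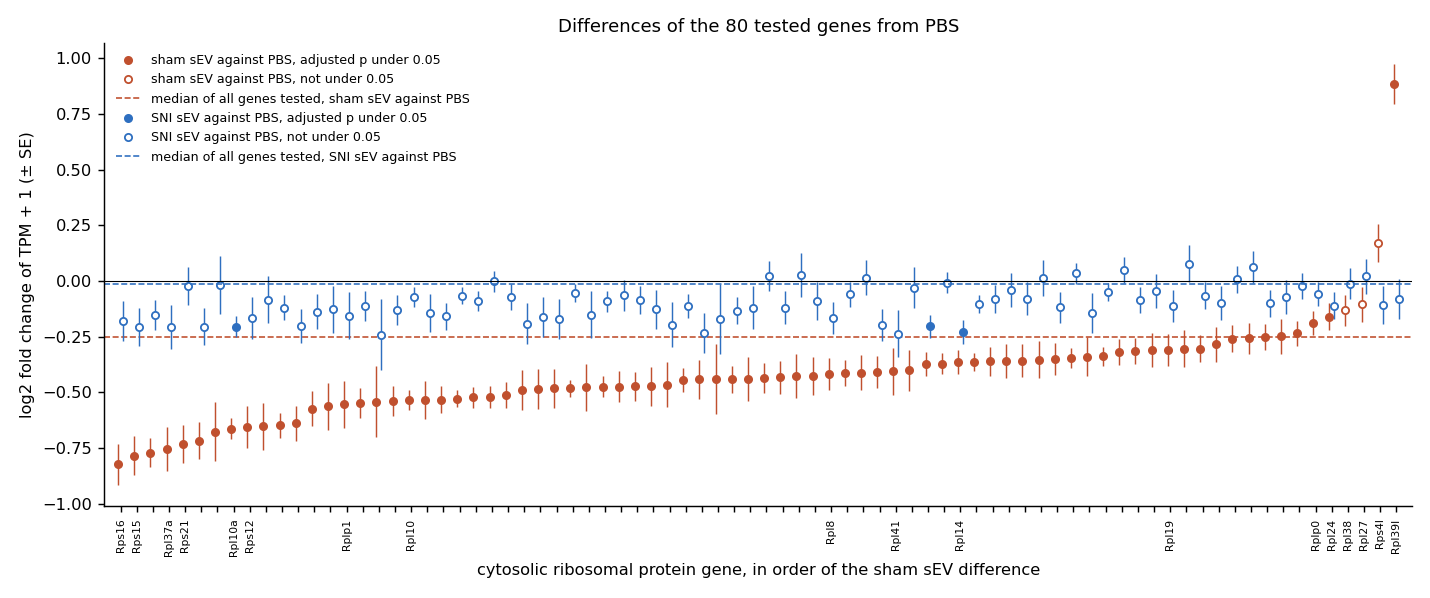
Log2 fold change of TPM + 1 against PBS with its standard error (vertical axis) for the 80 tested genes (horizontal axis, ordered by the sham-sEV difference, with some genes labelled); filled points have an adjusted p under 0.05 and dashed lines are the medians of all genes tested. Most sham-sEV points lie under the all-gene line at -0.25, Rpl39l stands alone at 0.89, and the SNI-sEV points lie between -0.24 and 0.08.

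How much lower the family was depended on the total chosen. When the 20 highest other genes were taken out of the total, the median was -0.37 with 72 members lower and 2 higher, against -0.19 and 47.1% lower and 19.2% higher over all genes. With quantile normalization it was -0.37, again with 72 lower and 2 higher, against -0.01 and 33% lower and 29.1% higher. With median-of-ratios scaling the median was -0.16 with 23 members lower and 2 higher, against -0.0024 over all genes, where 30.9% were lower and 31.9% higher. The median of the family was thus below that of all genes under each of the 4 scalings, but the share of members lower under median-of-ratios scaling, 28.75%, was near the background. Under that scaling the members' TPM summed to 25461 ± 3516 in PBS and 22346 ± 808 with sham sEV, which is 87.8% of PBS, or 94.3% without PBS replicate 1. Rps16 (-0.54, adjusted p = 0.0019), Rps15 (-0.50, adjusted p = 0.002), Rpl37a (-0.47, adjusted p = 0.0058) and Rps21 (-0.45, adjusted p = 0.0036) were still lower there, whereas the most abundant members Rplp1 (-0.27, adjusted p = 0.099), Rpl8 (-0.13, adjusted p = 0.23) and Rpl41 (-0.12, adjusted p = 0.44) did not pass. A negative sign was kept by 69 of the 80.

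**Figure D3:**
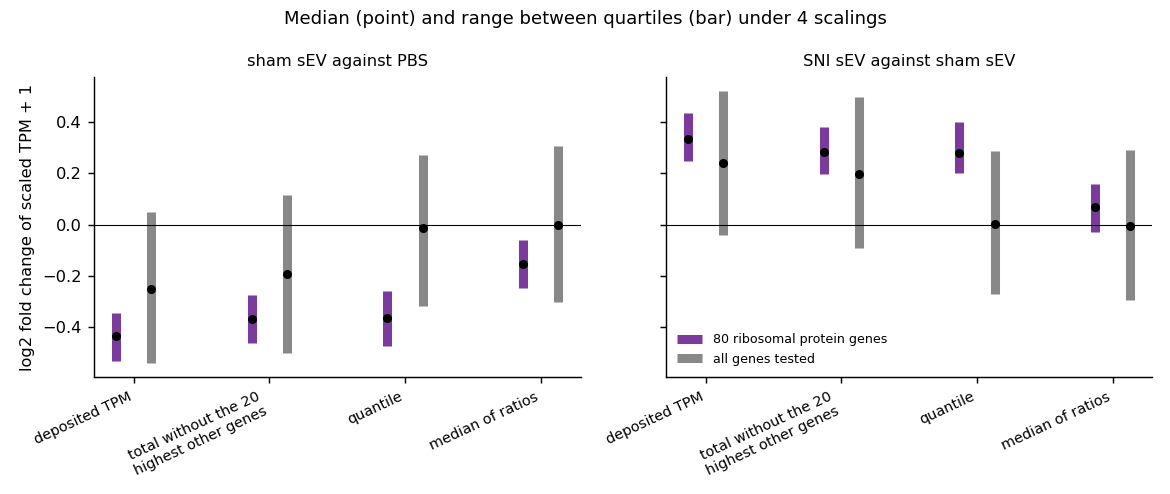
Median (points) and range from the lower to the upper quartile (bars) of log2 fold changes for the 80 ribosomal protein genes and for all genes tested, under 4 scalings, for sham sEV against PBS (left) and SNI sEV against sham sEV (right). On the left the family's median lies under the all-gene median in each scaling, from -0.44 on deposited TPM to -0.16 with median-of-ratios scaling.

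To ask which members moved unequally, each library was scaled so that the geometric mean of the 80 members was equal, which takes the TPM total out. For sham sEV against PBS 11 members were then higher and 13 lower than the family, while 34.2% of all genes were higher and 19.3% lower on that scale. Among the lowest were Rps16 (-0.40 ± 0.06, adjusted p = 0.00016), Rps15 (-0.36 ± 0.06), Rpl37a (-0.33 ± 0.07) and Rps21 (-0.31 ± 0.07). The highest were Rpl39l (1.27 ± 0.10, adjusted p = 3.1e-07), Rps4l (0.59 ± 0.07, adjusted p = 1.8e-05), Rpl27 (0.32 ± 0.07), Rpl38 (0.29 ± 0.07) and Rpl24 (0.26 ± 0.07). Rplp0 was also higher than the family (0.24 ± 0.05, adjusted p = 0.0028). Without PBS replicate 1 the counts were 14 higher and 21 lower, against 35.5% and 27.9% of all genes. Without sham-sEV replicate 2 or 3 there were 7 higher (share of all genes not given).

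Rpl39l was the member that went against the family. It is a paralog of Rpl39 known in mouse from male germ cells; Rpl39 lines the exit tunnel of the large subunit. Both coding sequences are shown because the reads must tell them apart: they are 156 bases long in the GENCODE vM21 transcripts on GRCm38, and 133 of the bases (85.3%) are identical. Capitals mark the 23 bases that differ.
Rpl39: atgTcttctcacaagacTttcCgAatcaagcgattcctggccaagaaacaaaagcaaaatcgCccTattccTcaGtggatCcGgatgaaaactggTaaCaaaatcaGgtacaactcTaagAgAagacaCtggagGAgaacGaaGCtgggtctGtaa
Rpl39l: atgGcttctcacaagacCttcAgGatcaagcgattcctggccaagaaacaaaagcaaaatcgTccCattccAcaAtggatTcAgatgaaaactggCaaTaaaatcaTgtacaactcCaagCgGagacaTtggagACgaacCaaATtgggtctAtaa
Rpl39 lies on the minus strand at chrX:37082520-37085402 and Rpl39l on the plus strand at chr16:10170226-10174911. Rpl39l was at 5.96, 5.03, 6.07 and 5.21 TPM in PBS, 9.93, 11.3 and 12.2 with sham sEV and 5.69, 4.98 and 4.96 with SNI sEV. Every sham-sEV value was above every other value, and the log2 fold change against PBS was 0.89 ± 0.09 (adjusted p = 4.6e-06, 1.85-fold). It was 1.14 under median-of-ratios scaling (adjusted p = 1.2e-06). Rpl39 itself was at 442, 501.8, 425 and 388 TPM in PBS, 332, 339 and 394 with sham sEV and 459, 460.4 and 466 with SNI sEV, with 1 sham-sEV library inside the PBS range (-0.30 ± 0.08, adjusted p = 0.0066, and -0.02, adjusted p = 0.87, under median-of-ratios scaling). On the TPM scale, which is per length, the paralog was at 5.57 ± 0.526 beside 439 ± 47.4 for Rpl39 in PBS.

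Rps4l is a transcribed processed copy of Rps4x, the X-linked gene of small-subunit protein S4, and 632 of 789 aligned coding bases (80.1%) are identical. Rps4l was at 68.2, 50.7, 56.2 and 58.8 TPM in PBS, 66.5, 63.2 and 67.0 with sham sEV and 57.4, 52.0 and 52.4 with SNI sEV. The sham-sEV values were inside the PBS range, whose top was PBS replicate 1, and the difference did not pass (0.17 ± 0.09, adjusted p = 0.098). It passed without PBS replicate 1 (0.25, adjusted p = 0.004) and under median-of-ratios scaling (0.45, adjusted p = 0.0029). Rps4x, in contrast, was lower in each sham-sEV library, at 423, 417 and 439 TPM against 607, 594, 595 and 585 in PBS (-0.48 ± 0.04, adjusted p = 5.9e-07).

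Rps27l, Rpl6l and Rpl32l were lower on deposited TPM, as Rps27, Rpl6 and Rpl32 were, and Rpl3l was too low to be tested. Rps27l, known in other work as a target of p53, was lower by 0.43 ± 0.07 (adjusted p = 0.00029), from 33.3 ± 2.85 to 24.4 ± 1.83 TPM. Rpl6l was lower by 0.34 ± 0.04 and Rpl6 by 0.44 ± 0.06, and Rpl32l by 0.43 ± 0.10 and Rpl32 by 0.51 ± 0.06. Rpl6 and Rpl6l share 98.7% of 871 aligned bases and Rpl32 and Rpl32l 97.2% of 399, so values within these pairs are uncertain. Rps27l (-0.16), Rpl6l (-0.05) and Rpl32l (-0.14) no longer passed with median-of-ratios scaling. Without the symbols that end in l, 73 of 75 members were lower and 0 higher.

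**Figure D4:**
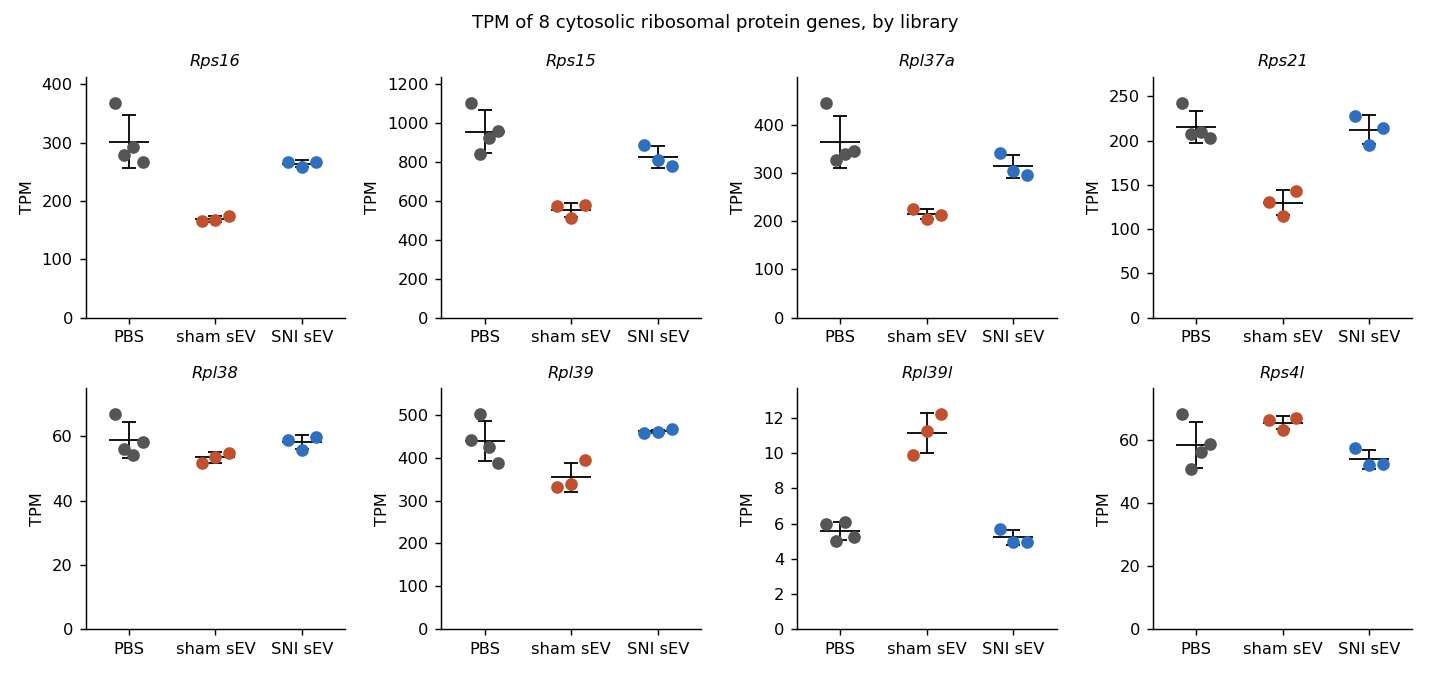
TPM (vertical axes, from 0) of 8 members in the 10 libraries; points are libraries, the bar is the group mean and the whisker the SD. Rps16, Rps15, Rpl37a and Rps21 are lowest in the 3 sham-sEV libraries, Rpl38 and Rpl39 overlap between PBS and sham sEV, and Rpl39l is highest with sham sEV, at 9.93 to 12.2 TPM.

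The second comparison, SNI sEV against PBS, uses the same PBS libraries. Of the 80 members 3 were lower and 0 higher, against 2.36% and 2.97% of all genes. At an unadjusted p under 0.05 the counts were 13 and 0, beside 1766 and 976 of all 14806 genes. The median was -0.10, with a range of -0.24 to 0.08, beside -0.01 over all genes. A negative sign was found in 70 of the 80 members, beside 7977 of the 14806 genes. Groups did not overlap for 11 members, against 17.3% of all genes. Without PBS replicate 1 the median was -0.05.

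Among the members called lower were Rpl10a and Rpl14. Rpl10a was at 205, 203 and 204 TPM with SNI sEV, under all 4 PBS values given above (-0.21 ± 0.05, adjusted p = 0.029). Rpl14, a protein of the 60S solvent side, was at 403, 354, 366 and 374 TPM in PBS and 333, 307 and 318 with SNI sEV (-0.23 ± 0.05, adjusted p = 0.034). In neither gene did PBS and SNI-sEV values overlap, yet the adjusted p-values were close to the threshold. Rpl14-ps1, a copy identical to Rpl14 in 99.4% of 651 aligned bases, had a higher mean over all libraries (815 TPM beside 333). It overlapped between PBS and SNI sEV and did not pass (-0.05 ± 0.05, adjusted p = 0.61). Rpl10a-ps1 did not pass either (-0.23 ± 0.06, adjusted p = 0.064). Reads may not tell these copies from the genes, so both calls are uncertain. Deviations of same-numbered PBS and SNI-sEV libraries from their group means had a correlation r of 0.154 to 0.363, and those of differently numbered ones -0.351 to 0.220. With the replicate number as a block the count was 2 in all libraries and 0 in the PBS and SNI-sEV libraries alone. The count was also 0 without PBS replicate 3, any 1 sham-sEV library or any 1 SNI-sEV library, and it was 1 without PBS replicate 4. With median-of-ratios scaling 0 members were lower and 0 higher, against 1.74% and 3.31% of all genes, with quantile normalization 2 and 0 (2.48% and 3.37%), and without the 20 highest other genes 1 and 0 (1.79% and 3.12%). Relative to the family's geometric mean 0 members were higher and 0 lower, against 2.42% and 0.108% of all genes.

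The third comparison sets the 2 vesicle preparations against each other and so tests directly whether their effects differ; it shares its sham-sEV libraries with the first. Of the 80 members 65 were higher with SNI sEV and 2 lower, against 49.9% and 15.7% of all genes. Without PBS replicate 1 the counts were 75 and 2, against 55.7% and 17.8%. The median was 0.33, with a range of -0.96 to 0.71, beside 0.24 over all genes. Groups did not overlap for 77 members, against 78.1% of all genes. Among the largest differences were those of Rps21 (0.71 ± 0.09, adjusted p = 4.3e-05), Rps27 (0.66 ± 0.14, adjusted p = 0.0016), Rps16 (0.64 ± 0.10, adjusted p = 0.00014) and Rps15 (0.58 ± 0.09, adjusted p = 0.00022). Lower with SNI sEV were Rpl39l (-0.96 ± 0.10, adjusted p = 5.1e-06) and Rps4l (-0.28 ± 0.09, adjusted p = 0.019).

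Small-subunit genes were higher in 29 of 32 cases (median 0.37) and large-subunit genes in 36 of 48 (median 0.32). Rpl14, lower with SNI sEV than in PBS, differed by 0.14 ± 0.06 here (adjusted p = 0.053). With median-of-ratios scaling 10 members were higher and 3 lower, against 28.7% and 30.2% of all genes, and the median was 0.068. With quantile normalization 61 were higher and 2 lower (29.5% and 27.9% of all genes), and without the 20 highest other genes 59 and 2 (45.7% and 17.9%). Relative to the family 9 members were higher and 9 lower, against 20.3% and 26.8% of all genes; at the ends were Rps21 (0.39 ± 0.07, adjusted p = 0.00089) and Rpl39l (-1.26 ± 0.10, adjusted p = 8.6e-07). Without PBS replicate 1 these counts were 16 and 13, against 27.3% and 35.2% of all genes. Without SNI-sEV replicate 1 or sham-sEV replicate 2 they were 5 and 5 (shares of all genes not given).

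A large part of the family's signal stood at entries annotated as pseudogenes. The table holds 213 symbols of this family that carry -ps, of which 212 name a member as parent, 81 had a mean of at least 100 TPM and 156 were tested. They summed to 32525 ± 2410 TPM in PBS, 23599 ± 799 with sham sEV and 30518 ± 1186 with SNI sEV, which is more than the members' own sum. The ratio of the copies to the members was 1.21 ± 0.0348, 1.21 ± 0.0191 and 1.23 ± 0.00893 in the 3 groups. For 41 of the 56 members with such entries the copies summed to more than the gene itself. At the extreme, Rpl28 was at 0.239 TPM as a mean of all libraries and its 3 copies together at 616, and Rps12 was at 80.8 TPM beside 2185 for its 20 copies. Rpl38 was at 57.0 TPM beside 794 for its 2 copies, and Rpl31 at 56.4 beside 774 for its 7. Values at the own entries of such members thus cover a small part of the signal.

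Rps16 shows why such values are uncertain. Its copy Rps16-ps2 is a single block of 441 bases on the minus strand at chr5:129128077-129128517, and all 441 coding bases of Rps16, whose exons are spread over chr7:28350652-28353155 on the plus strand, are identical to it. The first 120 coding bases of each, from the GENCODE vM21 transcripts and annotation on GRCm38, are shown as an example of a stretch in which a read carries no information on its origin; no base differs, so none is in capitals.
Rps16: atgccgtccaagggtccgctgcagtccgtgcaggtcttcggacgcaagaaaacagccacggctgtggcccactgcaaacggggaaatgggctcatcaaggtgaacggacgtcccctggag
Rps16-ps2: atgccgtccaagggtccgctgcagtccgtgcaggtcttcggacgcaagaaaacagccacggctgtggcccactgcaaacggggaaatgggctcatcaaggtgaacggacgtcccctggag
Rps16-ps2 was at 1195, 890.5, 940.4 and 924 TPM in PBS, 536, 516 and 546 with sham sEV and 896, 825 and 829 with SNI sEV. The order of the groups was that of Rps16, at a higher level, with a log2 fold change of -0.88 ± 0.09 for sham sEV against PBS (adjusted p = 3.9e-06) beside -0.82 for Rps16. Rpl10a and Rpl10a-ps1 are also identical over all 654 coding bases, and the log2 fold change of the copy was -0.65 ± 0.06 beside -0.66 for the gene. How reads that match several places were handled is not given in the sources used here.

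The TPM of each member was also summed with that of its -ps entries, an alternative chosen after seeing the data. Such a sum may not undo a division of reads between them. TPM is corrected for the length of each entry, and the handling of reads with several matches is not given. Copies whose symbol lacks -ps were not added. For sham sEV against PBS 77 of 81 were then lower and 1 higher, against 52% and 16.6% of 14651 genes, with a median of -0.43. Rpl28 became testable, at 827, 628, 667 and 689.7 TPM in PBS, 489, 461 and 493 with sham sEV and 679.9, 619 and 609 with SNI sEV. Its sham-sEV libraries lay below all others (-0.54 ± 0.08, adjusted p = 0.00014). Rpl27 and Rpl38 again did not pass (adjusted p = 0.62 and 0.085). For SNI sEV against PBS 0 were lower and 0 higher, against 2.38% and 3% of genes, and for SNI sEV against sham sEV 70 were higher and 2 lower, against 49.6% and 15.8%.

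**Figure D5:**
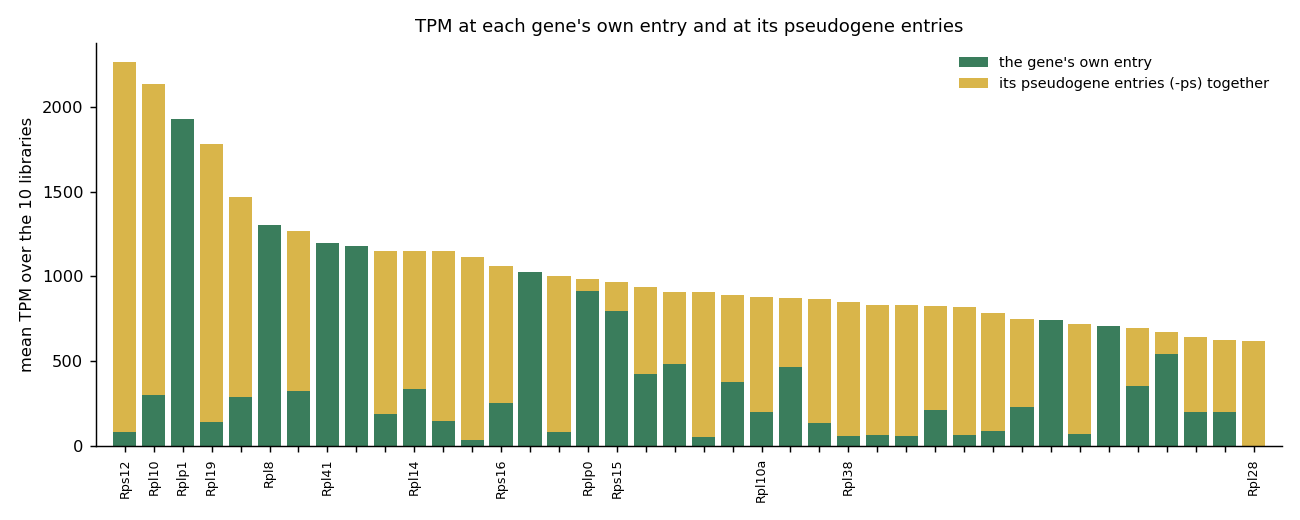
Mean TPM over the 10 libraries (vertical axis, from 0) at each gene's own entry and, stacked on it, at its pseudogene entries together, for the 40 members with the highest sum; only genes spoken of in the text are labelled. Rps12, Rpl10, Rpl19 and Rpl28 stand mostly at their copies, and Rplp1, Rpl8 and Rpl41 almost wholly at their own entries.

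In RefSeq promoters of GRCm38, 60 of the 82 members had an entry, 72 promoters in all. A search on the gene's strand for CTTTC or CTTCC, pyrimidine runs of the TOP kind, from 20 bases before to 20 after the start found 30 of the 72 (41.7%), beside 13.7% of all 32851 promoters. On both strands the shares were 55.6% and 26.3%. CCGGAAG, the core bound by factors of the Ets family, stood on either strand in 36.1% of member promoters and 8.86% of all, within 250 bases before to 50 after the start, and TATAAA in 0% and 3.5% of the 50 bases before the start. The 100 bases around the start (80 before, 20 after) are shown for members that fell (Rps27, Rpl31), for Rpl38, which did not pass, and for Rpl39l, which rose, with capitals for CTTTC or CTTCC within 20 bases of the start and for CCGGAAG.
Rps27: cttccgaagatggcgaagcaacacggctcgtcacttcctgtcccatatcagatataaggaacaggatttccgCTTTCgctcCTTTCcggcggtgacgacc
Rpl31: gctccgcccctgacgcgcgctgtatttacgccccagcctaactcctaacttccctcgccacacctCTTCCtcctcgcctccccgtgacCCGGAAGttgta
Rpl38: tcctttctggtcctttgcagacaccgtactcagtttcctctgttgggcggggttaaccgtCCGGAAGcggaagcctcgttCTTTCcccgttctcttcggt
Rpl39l: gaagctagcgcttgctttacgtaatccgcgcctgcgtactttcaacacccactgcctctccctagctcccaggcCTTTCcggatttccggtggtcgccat
The stretches are chr3:90213629-90213728 on the minus strand, chr1:39367771-39367870, chr11:114668500-114668599 and chr16:10170148-10170247 on the plus strand. The pyrimidine letters stood near the start of all 4, so these 4 cannot show whether the letters go with direction. In Rpl31 and Rpl39l they lay before the annotated start. A match of letters is a description and not a site.

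Other genes of translation were read from the same fit as counts, beside the background given above. The lists overlap, so their counts are not independent. Eef1a1, for example, stands among both the TOP messengers and the elongation factors, and Eif3f among both the TOP messengers and the initiation factors. Among 20 other TOP messengers, 15 were lower and 2 higher with sham sEV than with PBS (median -0.33), 0 of either kind differed for SNI sEV, and 13 were higher and 1 lower with SNI sEV than with sham sEV. Tpt1, a growth-linked TOP messenger, was at 794 ± 43.7 TPM in PBS, 499 ± 28.3 with sham sEV and 791 ± 19.4 with SNI sEV (-0.67 ± 0.05 for sham sEV against PBS, adjusted p = 7e-07). Of 7 elongation factors 6 were lower and 1 higher with sham sEV (median -0.35): Eef1a1, which brings transfer RNA to the ribosome, went from 5292 ± 135 to 3724 ± 45.2 TPM (-0.51 ± 0.04, adjusted p = 6.7e-07), and Eef2, the translocase, from 1549.6 ± 122 to 1212 ± 35.9 (-0.35 ± 0.06, adjusted p = 0.00024, and -0.07, adjusted p = 0.33, under median-of-ratios scaling). Eif5a, which relieves stalled ribosomes, was the one that was higher (0.30 ± 0.05, adjusted p = 0.00013). Of 7 ribosomal genes whose symbols fall outside the rule 5 were lower and 0 higher; Rack1, on the 40S head, fell by 0.38 ± 0.04 (-0.10, adjusted p = 0.22, under median-of-ratios scaling).

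Initiation factors were mixed. Of 34, 12 were higher and 13 lower with sham sEV than with PBS, with a median of 0.03. Eif4g2, which supports cap-independent initiation, rose from 270.4 ± 37.2 to 744 ± 9.40 TPM (1.47 ± 0.10, adjusted p = 9.4e-08) and was at 299 ± 17.4 with SNI sEV. Eif1, which guards start-codon choice, rose by 0.52 ± 0.05, whereas Eif3f fell by 0.65 ± 0.05 and Eif4b, a helper of the cap-binding helicase, by 0.59 ± 0.05.

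Of 21 genes of mTORC1, MYC and TOP control 3 were higher and 9 lower with sham sEV. Eif4ebp1, a repressor of cap-dependent translation that mTORC1 inactivates, was at 65.2 ± 4.85 TPM in PBS, 114 ± 4.04 with sham sEV and 53.7 ± 2.80 with SNI sEV. It was higher with sham sEV (0.80 ± 0.06, adjusted p = 5.7e-07) and lower with SNI sEV (-0.27 ± 0.06, adjusted p = 0.032) than with PBS. The SNI-sEV difference did not hold with median-of-ratios scaling (adjusted p = 0.11), quantile normalization, no filter or the replicate block on the 2 groups, each of which left 0 of the 125 translation genes lower. Its relative Eif4ebp2 fell by 0.83 ± 0.12 with sham sEV and Rragc, a GTPase that recruits mTORC1 to lysosomes, by 0.67 ± 0.09.

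Of 27 ribosome biogenesis genes 6 were higher and 11 lower with sham sEV, and Nop10 and Nhp2, proteins of the particles that modify ribosomal RNA, fell by 0.62 ± 0.06 and 0.72 ± 0.08. Nop10 was also lower with SNI sEV than with PBS (-0.25 ± 0.06, adjusted p = 0.037). Like that of Eif4ebp1, this call was lost with median-of-ratios scaling (adjusted p = 0.12), with the replicate block on the 2 groups, and without PBS replicate 3, sham-sEV replicate 1 or 3, or any 1 SNI-sEV library. Of 12 RNA polymerase I genes 1 was higher and 6 lower, among them Polr1c, a core subunit (-0.59 ± 0.08), and Ubtf, a factor that binds ribosomal DNA (-0.48 ± 0.07). Of 10 ribosome rescue genes 3 were higher and 2 lower, with Ascc3, a helicase that splits collided ribosomes, at 0.68 ± 0.16 and Gcn1, a sensor of such collisions, at -0.39 ± 0.10, where median-of-ratios scaling gave -0.11 (adjusted p = 0.3). Of the 78 mitochondrial ribosomal genes 9 were higher and 40 lower (median -0.19). Over the 125 genes of the translation lists together 28 were higher and 55 lower with sham sEV than with PBS, but 63 were higher and 20 lower under median-of-ratios scaling.

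The authors' deposited table of differential genes holds 2375 genes, beside 32074 entries with TPM, and 0 of the 82 members. The largest fold of each gene in it is at least 2-fold. On the log2(TPM + 1) scale the changes of the tested members ran from -0.96 to 0.89, which is under 2-fold. The count of 0 therefore does not set the members apart from other genes.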

How the data were processed

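Poly(A) RNA of 10 cultures of primary mouse microglia (4 with PBS, 3 with sham sEV, 3 with SNI sEV) was sequenced from stranded libraries. The authors deposited 1 table of TPM values for 32074 genes; bcl2fastq, BWA, Subread, featureCounts 2.0.2 and the build mm10 are named per the submitters' processing notes, while the order of the steps, the annotation and the handling of reads with several matches are not given in the sources used here. No counts were used here, so the depth of each library is unknown and no interval from counting is given. In the authors' deposited table of differential genes the signed fold changes are treated as a score, and its p-value and FDR columns were made by the authors by a test not given in the sources used here; only its list of genes and their fold sizes were used.

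Samples were grouped by the labels. The fit used log2(TPM + 1) for 14806 genes whose mean over all libraries reached 1 TPM, in limma 3.58.1 in R 4.3.3, with 1 mean per group over all 10 libraries and a trended prior. Benjamini-Hochberg adjustment ran over these genes, and an adjusted p under 0.05 was called. The log2(TPM + 1) scale understates changes of low genes such as Rpl39l. Each value after ± is an SD for levels and an SE for fold changes. The labels do not say whether the cultures came from separate animals, so p-values measure only the spread between these libraries. For comparisons within the family, TPM was divided by the geometric mean of the tested members. Deviations of same-numbered PBS and SNI-sEV libraries from their group means had r of 0.154 to 0.363 over 3 pairs, across the genes tested. Differently numbered ones had r of -0.351 to 0.220 over 9 pairs. These ranges overlap, so the values do not settle whether the numbers pair the libraries. The fit with the number as a block is given beside the counts it moves. Scripts were tested on simulated data.

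The members and all lists were chosen with earlier results of these data known. Per comparison the text names up to 5 rises and 10 falls, up to 5 members at each end of the family scale, paralog pairs, the 5 highest members and up to 4 genes of each other list by smallest p. Rplp0, Rpsa, Rps6, Rps4x, Rpl28 and the pseudogene entries were named after their values were seen, and some genes that the rule names are not reported here. Alternatives were another pseudocount (0.1, 0.5), filter or scaling, only the groups compared, the replicate block, each library left out, and members summed with their pseudogene entries. Coding sequences and identities came from GENCODE on GRCm38 (pairwise alignment in Biopython 1.88), and promoters from RefSeq on GRCm38.p6.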

Additional observations from a re-analysis of the deposited data

Results flagged for a closer look

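PBS replicate 1 lay apart from the other PBS libraries in 6 of 28 items examined by Dixon's test for 4 values. The test uses the gap between the highest or lowest library and its neighbour. For 1 item alone chance gives about 1 in 20. The items come from the same 4 libraries and are not independent, so 6 of 28 cannot be set against that rate. In PBS replicate 1 the members summed to 30707 TPM, their pseudogene entries to 36115 TPM and the mitochondrial ribosomal genes to 3537 TPM. Single genes with such a gap were Rpl32 at 1264 TPM, Rpl37a at 445 and Rps27 at 156. Over all 80 tested members 12 were set apart in this way, each with PBS replicate 1 as the highest. The same count over all genes is not given here. Without that library 75 members were lower and 2 higher for sham sEV against PBS, where 58.4% and 16.9% of all genes were, and 75 were higher and 2 lower for SNI sEV against sham sEV, where 55.7% and 17.8% of all genes were.

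The response to the 2 vesicle preparations differed for 67 members, by limma's test of SNI sEV against sham sEV, which is the difference of their effects against the shared PBS libraries. In that comparison 49.9% of all genes were higher and 15.7% lower. The difference, SNI sEV minus sham sEV on the log2 scale, was 0.71 for Rps21, 0.66 for Rps27, 0.64 for Rps16, 0.58 for Rps15, -0.96 for Rpl39l and -0.28 for Rps4l. The 2 groups did not overlap in any of these 6 genes, nor in 78.1% of all genes.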

How the results depend on the processing

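The median of the members kept its sign in each comparison under every scaling, filter, pseudocount, block and left-out library tried, but counts moved. With median-of-ratios scaling, sham sEV against PBS gave 2 members higher and 23 lower (median -0.16) and SNI sEV against sham sEV 10 higher (median 0.068), SNI sEV against PBS gave 0 lower, and signs turned for some members, among them Rpl24 (0.12 for sham sEV against PBS, -0.23 for SNI sEV against sham sEV), Rpl3 (-0.013) and Rpl8 (-0.025, both for SNI sEV against sham sEV). A negative sign was found for 69 of the 80 members with sham sEV against PBS, beside 78 on deposited TPM, and for 26, beside 2, with SNI sEV against sham sEV. The translation lists under this scaling gave 63 higher and 20 lower (sham sEV against PBS), 12 higher and 61 lower (SNI sEV against sham sEV) and 0 lower (SNI sEV against PBS). With quantile normalization 2 members were higher with sham sEV than with PBS, and the lists gave 47 higher and 31 lower (sham sEV against PBS), 31 higher and 46 lower (SNI sEV against sham sEV) and 0 lower (SNI sEV against PBS). Without the 20 highest other genes 2 members were higher with sham sEV than with PBS, and 1 member and 1 list gene were lower with SNI sEV than with PBS. For SNI sEV against PBS 1 member and 0 list genes were lower with no filter, 0 and 0 with only the 2 groups fitted, and 0 members with pseudogene entries summed in. Relative to the family, SNI sEV against sham sEV gave 17 higher and 14 lower with only the 2 groups fitted, and 5 and 14 with the members' median as reference. The shares of all genes under these 2 settings are not given here, so these counts do not show a shift particular to the members.

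With a replicate block on the 2 groups compared, SNI sEV against PBS gave 0 members and 0 list genes lower, and sham sEV against PBS gave 4 members higher and 6 lower than the family. With the replicate block over all 10 libraries SNI sEV against PBS gave 2 members lower. Deviations of same-numbered sham-sEV and PBS libraries from their group means had r of -0.0176 to 0.0512, and those of differently numbered ones -0.270 to 0.161. For sham-sEV and SNI-sEV libraries r was 0.0172 to 0.0772 with the same number and -0.0833 to 0.0177 with different numbers. Here too the values do not settle whether the numbers pair the libraries.

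Leaving out 1 library at a time gave 1 to 2 members higher and 73 to 76 lower for sham sEV against PBS (median -0.47 to -0.37), 0 to 4 lower for SNI sEV against PBS (median -0.13 to -0.05), and 56 to 75 higher and 1 to 2 lower for SNI sEV against sham sEV (median 0.30 to 0.37). Relative to the family the ranges were 7 to 14 higher and 10 to 21 lower for sham sEV against PBS and 5 to 16 higher and 5 to 13 lower for SNI sEV against sham sEV. The highest of these 4 counts all came without PBS replicate 1, and the lowest came without a sham-sEV or SNI-sEV library. List genes lower with SNI sEV than with PBS numbered 0 to 4. Shares of all genes moved as well. Relative to the family, SNI sEV against sham sEV had 20.3% higher and 26.8% lower, and 27.3% and 35.2% without PBS replicate 1. For the other left-out libraries and the replicate block such shares are not given here. On deposited TPM a PBS library does not enter the fold changes of SNI sEV against sham sEV. It enters the filter and the estimate of the spread, which the 3 groups share. The cause of the shifts was not tested further. Pseudocounts of 0.1 and 0.5 and a filter of at least 5 TPM moved no count of members by more than 1.5 times. TPM without counts gives no depth, so the precision of low members such as Rpl39l is known only from the spread between libraries.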
